A study of Mus musculus with 4 samples.

Results

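Circular RNAs (circRNAs) made from 29 genes for RNA-binding and RNA-processing proteins were examined in mouse articular chondrocytes. A circle was counted for a gene when both of its ends lay within 1 bp of, or inside, the RefSeq span of that gene in mm10 (GRCm38.p6). This gave 290 of the 40909 circRNAs in the series, and 29 of the 7229 genes with at least 1 circle. All 290 circles lay on the strand of their gene, and 0 lay inside a further gene. The 29 genes are 10 splicing regulators (Ptbp3, Mbnl1, Mbnl2, Celf1, Celf2, Rbfox2, Rbm39, Rbm20, Hnrnpm and Srsf11), 1 core spliceosome gene (Sf3b1), 4 genes for double-stranded RNA binding or editing (Adar, Dhx9, Ilf2 and Zfr), 4 of the miRNA pathway (Drosha, Ddx17, Ago2 and Ago3), 2 of nonsense-mediated decay (Upf1 and Upf2), 5 that bind mRNA to set its stability or translation (Pum2, Elavl1, Fmr1, Rbms1 and Rbms3), 1 m6A writer (Mettl3) and 2 nuclear transport receptors (Xpo1 and Tnpo1).

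The study compared primary chondrocytes at passage 1 to 3 that received recombinant human IL-1β, an inflammatory cytokine, at 10 ng/ml for 24 h with control chondrocytes, in 2 libraries each. The control libraries carry the same treatment text in their labels, so they were taken as controls from their source label, which names no cytokine. Mouse strain, age and genotype were not given in the sources used here, nor whether the libraries of a group are separate cultures or animals, so a p-value here reflects library spread, which may be technical. RNase R, an exonuclease that removes linear RNA, had been applied to all libraries, so circles were measured and the mRNAs of the same genes were not.

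Many of these proteins act on the step that makes circles. In back-splicing, a splice donor is joined to an acceptor that lies upstream of it, which closes the RNA between them into a loop. Proteins that bind the flanking introns, such as the muscleblind protein MBNL1, can bring the ends together, while ADAR, which edits paired RNA, and the helicase DHX9, which unwinds it, are known to act against pairing of inverted repeats. Other members meet RNA later: argonaute proteins carry miRNAs, UPF1 and UPF2 act in nonsense-mediated decay, and XPO1 carries cargo out of the nucleus. The values below concern circles spliced from the genes for these proteins and say nothing of the proteins' amounts.

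The 4 libraries held 895774 to 1203855 back-splice junction reads. In the order IL-1β 1, IL-1β 2, control 1 and control 2, used throughout, the 29 genes held 6578 and 7702 reads in the IL-1β libraries against 7554 and 6195 in control 1 and control 2, or 0.734%, 0.785%, 0.631% and 0.515% of each library. Without Ptbp3 the shares were 0.397%, 0.414%, 0.417% and 0.321%, so control 2 was the lowest either way. Control 2 also held the fewest member circles, with 119 against 139 to 160 in the other libraries, and 118 against 139 to 160 after each library was thinned to 895774 reads. It stood lowest of the 4 libraries in 15 of the 29 genes (51.7%) against 25.3% of all 5031 genes tested. The lean of the 29 genes and the changes of some of them are therefore given without it too. Not every result that may rest on it is, and the further genes listed at the end are not. By counting error alone, 0 reads of a circle allow up to 3.30, 3.07, 2.57 and 2.46 normalised reads per 1e6 reads (CPM) in the 4 libraries. Of 13 chondrocyte marker genes, 3 (Sox5, Sox6 and Hapln1) had circles and 10, Acan, Col2a1 and Sox9 among them, had none, so circles do not check the cell type. Of markers of other cells, 5 of 8 fibroblast genes had circles, with 93, 65, 170 and 261 reads, 0 of 5 macrophage and blood genes did, and Pecam1 alone of 4 endothelial genes did, with 8 reads in 1 library. The part of these markers in the results below was not tested.

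For 3 splice acceptors of member circles and for 1 miRNA inside member circles, bases were at hand in RefSeq sequences of gene starts and miRNAs (GRCm38.p6), and they show what a circle end is. The acceptors are given 5′ to 3′ on the strand of the gene. The AG just before the circle is in capitals, with the first bases of the circle after it. Whether that AG closes an annotated intron was not checked.
circRNA.8359 of Mbnl2, chr14:120388860-120388909, plus strand: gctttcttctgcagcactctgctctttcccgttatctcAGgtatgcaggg
circRNA.23479 and circRNA.23482 of Celf2, chr2:6721613-6721653, minus strand: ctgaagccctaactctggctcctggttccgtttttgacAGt
circRNA.24547 of Srsf11, chr3:158036580-158036629, minus strand: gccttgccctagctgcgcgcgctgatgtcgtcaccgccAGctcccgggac
mmu-miR-1898 in Zfr, chr15:12171502-12171523, plus strand, seed in capitals: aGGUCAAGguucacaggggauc
Of the 20 bases before the AG, 17 were pyrimidines in Mbnl2, 15 in Celf2 and 12 in Srsf11. The pyrimidine tract before an acceptor is the kind of site that proteins of the Ptbp3 family bind. The Srsf11 acceptor lay inside the window of 250 bases before to 50 after an annotated start of that gene, a start that is not the first base of its span. These circles were minor ones: circRNA.8359 had 23 reads, the Celf2 circles had 7 and 9, and circRNA.24547 had 6. The miRNA lay inside 4 Zfr circles, each read in 1 library only and with 36 reads in all. Circles that span a whole miRNA hairpin made up 4 of 290 member circles (1.38%) and 445 of all 40909 (1.09%). Over the series, the bases at hand held an AG just before 346 of 353 circle starts (98.0%) and a GT just after 116 of 119 circle ends (97.5%).

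A member gene gave a median of 10 circles against 5 over all genes tested. Among genes with at least 200 reads the medians were 11 and 9. The leading circle of a member gene held a median of 47.4% of its reads, against 58.4% over all genes tested. Ptbp3 alone held 11552 of the 28029 member reads (41.2%) and ranked 45 by reads among all host genes, and Mbnl1, with 4356 reads (15.5%), ranked 186. The other 27 genes ranged from 1897 reads in Rbms1 to 60 in Srsf11.

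**Figure D1:**
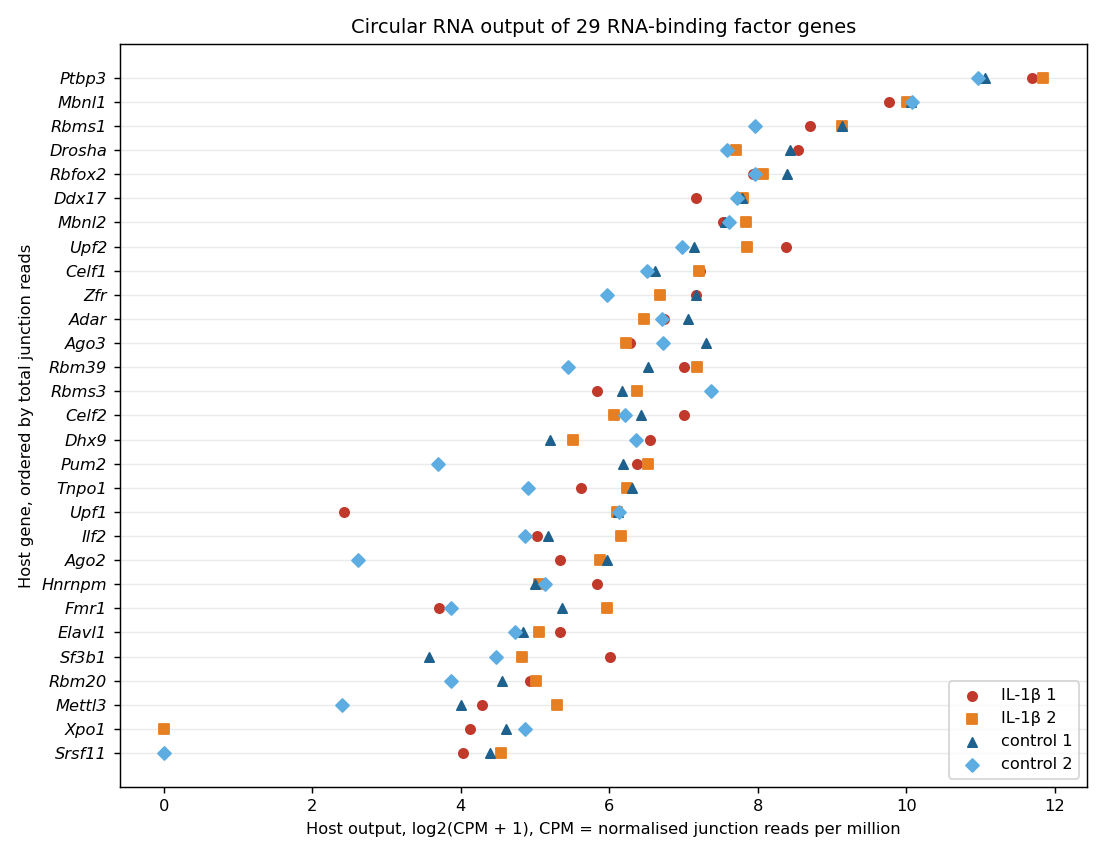
Circle output of each of the 29 genes in each library, as log2(CPM + 1), where CPM is normalised junction reads per 1e6 reads summed over the circles of a gene, ordered by total reads. Each point is 1 library, and the IL-1β points of Ptbp3 (3304 and 3680 CPM) stand right of its control points (2139 and 1991 CPM).

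Circles of 1 gene mostly shared their splice sites. Of the 290 circles, 246 (84.8%) had an end in common with another circle of the gene, close to the 82.4% over all genes tested. The 290 circles used 171 distinct 5′ ends and 175 distinct 3′ ends. Distances between the ends ranged from 294 bp in circRNA.6678 of Pum2 to 446781 bp in circRNA.38669 of Rbms3, with a median of 11319 bp against 11066.5 bp over all genes tested. The longest were concentrated in few genes, since 21 circles spanned at least 100 kb and the 2 longest genes, Rbms3 and Celf2, gave most of them. Circles lay toward the middle and end of their genes: the median 5′ end stood at 52.1% of the gene span, the median 3′ end at 76.4%, and 6 circles began in the first 5%. These positions were not determined over all genes tested, so they do not set the members apart.

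Summed over circles, 0 of the 29 genes differed between IL-1β and control at an adjusted p under 0.05 (edgeR's quasi-likelihood test with Benjamini-Hochberg adjustment), and 0 of all 5031 genes tested did (0.0%). The lowest adjusted p among members was 0.888. At an unadjusted p under 0.05, 2 of the 29, Ptbp3 and Upf2, stood out, both higher with IL-1β, against 229 of 5031 genes tested (4.55%). DESeq2 called 46 of 5031 genes (0.914%) at an adjusted p under 0.05, the same 2 members among them, with adjusted p = 2.02e-05 for Ptbp3 and 0.0477 for Upf2. With depth taken from the deposited SRPBM, a scaling that moved the median of all genes tested from -0.03 to -0.24 (log2), edgeR's unadjusted p was 0.105 for Ptbp3 and 0.0731 for Upf2, and 0 of the 29 were under 0.05.

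Both IL-1β libraries stood above both controls in 9 of 29 genes (17.3% of all genes tested) and below both in 4 (18.7% of all genes tested). In 16 genes the groups overlapped. The log2 change was above 0 in 21 of 29 genes (72.4%) against 48.2% of all genes tested, and its median was 0.28 against -0.03. That lean rests on control 2, which was the lowest library in 8 of the 9 higher genes (88.9%) and in 491 of 869 such genes over all tested (56.5%). Without control 2 the median of the 29 genes was -0.03 and 48.3% of them were above 0. Without control 1 the median was 0.75. With control 2 left out, the IL-1β libraries stood above control 1 in 11 members (31.1% of all genes tested) and below it in 9 (35.1% of all genes tested).

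**Figure D2:**
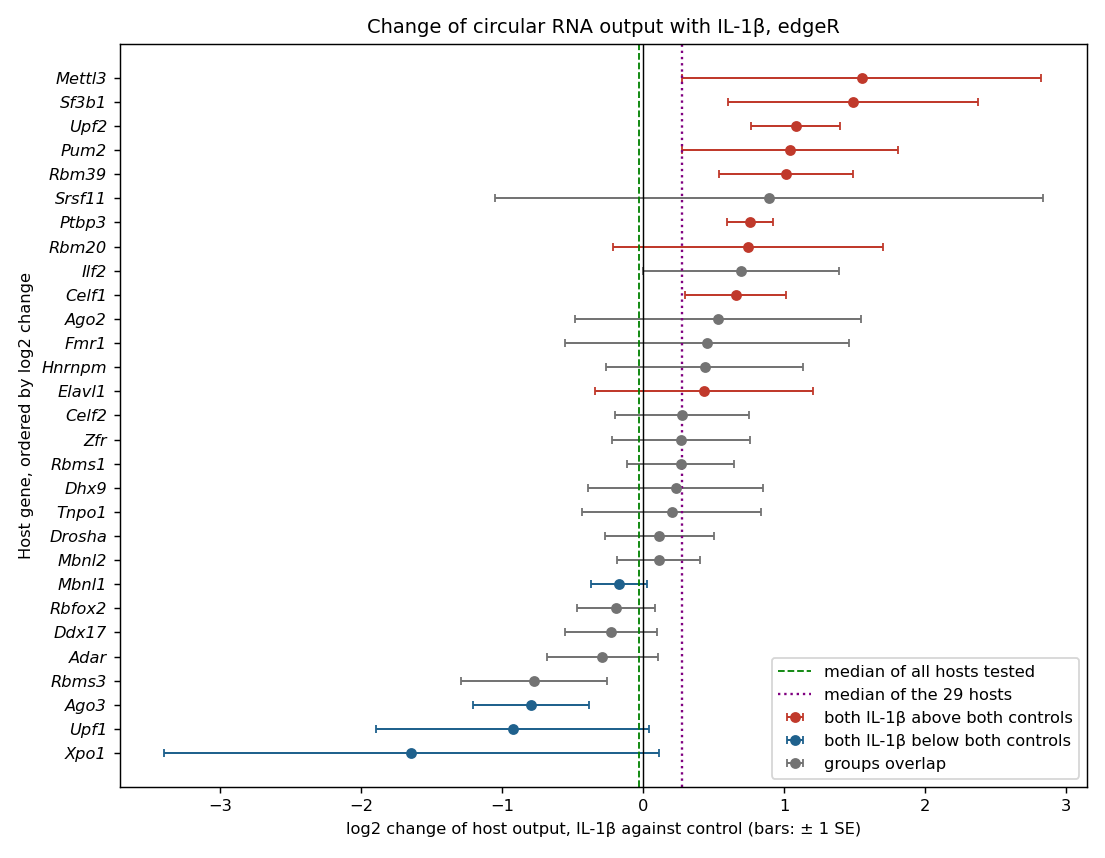
Change of circle output with IL-1β for each of the 29 genes, as the log2 change fitted by edgeR with bars of 1 standard error (SE), coloured by whether the 2 libraries of each group overlap. Ptbp3 (0.76 ± 0.17) and Upf2 (1.08 ± 0.32) lie more than 3 SE above 0, and the median of the 29 genes (0.28) lies right of the median of all genes tested (-0.03).

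Ptbp3, a splicing repressor of the polypyrimidine tract-binding family, lies on chromosome 4 (59471868 to 59549378, minus strand) and gave 17 circles. It held 3019 and 3642 reads with IL-1β against 2558 and 2333 in control, or 3492 ± 266 against 2065 ± 104 CPM (mean ± SD, n = 2 each). Both IL-1β libraries were above both controls, by 1.69-fold. The log2 change was 0.76 ± 0.17 (SE) with an unadjusted p = 0.00171 in edgeR, and 0.68 to 0.85 when any 1 library was left out. Nearly all of it was 1 circle, circRNA.27756, which joins 59514274 to 59524476, had the rank of 34 by reads in the series and held 88.9% of the gene's reads. Its reads were 2678 and 3229 with IL-1β against 2266 and 2097 in control, or 3127 ± 259 against 1828 ± 158 CPM (mean ± SD, n = 2 each). Its share of the gene was 88.7%, 88.7%, 88.6% and 89.9% in the 4 libraries. Its log2 change was 0.77 ± 0.20, with an unadjusted p = 0.00672 and an adjusted p = 0.886 in edgeR, and DESeq2 gave an adjusted p = 4.68e-04.

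Of the other Ptbp3 circles, circRNA.27758 shares the 3′ end of the leading circle and reaches further upstream, with 55 and 72 reads against 19 and 37. Its log2 change was 1.52 ± 0.60, with an unadjusted p = 0.0419 in edgeR. The circle circRNA.27752 shares the 5′ end of the leading circle and gave overlapping groups, with 85 and 134 reads against 126 and 110. Reads of circRNA.27748, a short circle of 1425 bp further downstream, were 88 and 122 with IL-1β, 76 in control 1 and 10 in control 2. The 3′ end at 59514274 was used by 91.6% of Ptbp3 reads and the 5′ end at 59524476 by 93.7%. Among tested Ptbp3 circles, 7 of 8 had a log2 change above 0 (48.3% of all circRNAs tested). Circles of a gene share ends and add to the same sum, so their signs are not separate support for it.

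**Figure D3:**
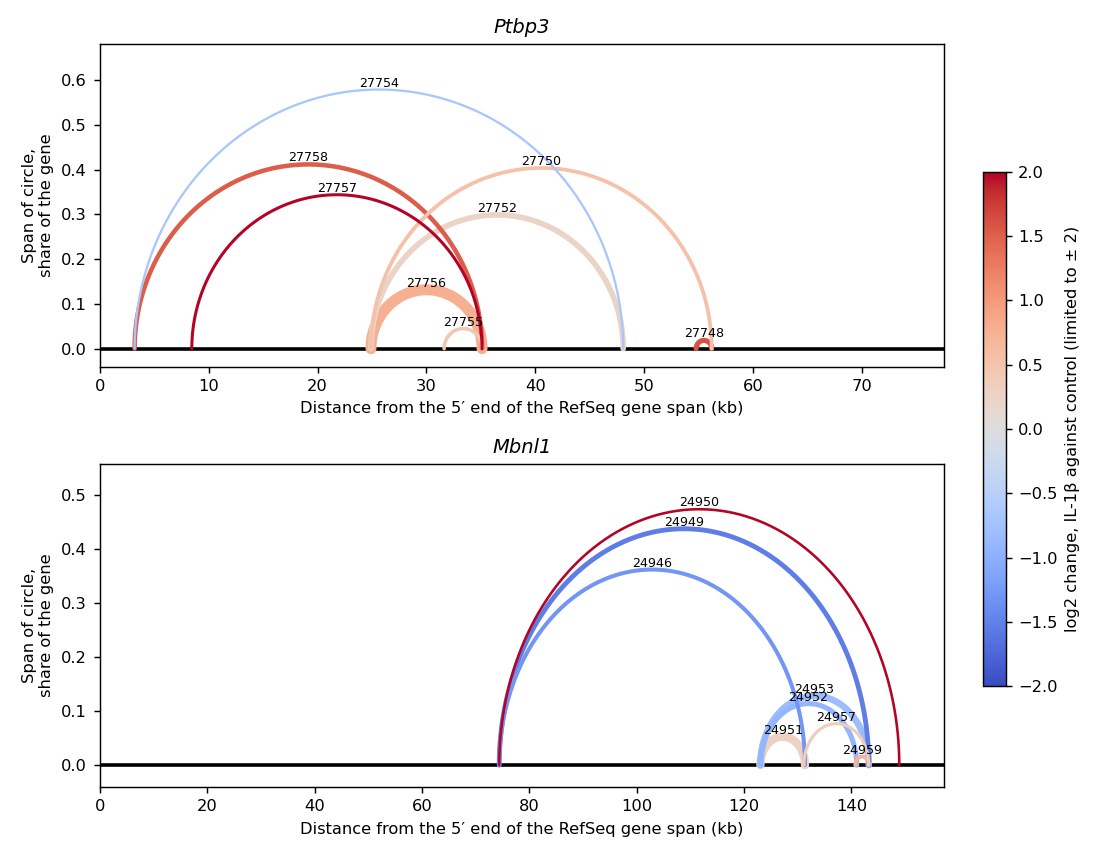
Circles of Ptbp3 and Mbnl1 with at least 20 reads, drawn as arcs over the gene from its 5′ end (x axis in kb); arc height is the share of the gene span, thickness follows the mean CPM and colour is the log2 change with IL-1β. The thick arc of circRNA.27756 in Ptbp3 is on the higher side (0.77), and in Mbnl1 the short circRNA.24951 is slightly on the higher side (0.30) while circRNA.24949 (-1.54) and circRNA.24953 (-0.82) are on the lower side.

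Mbnl1, whose fly homologue promotes a circle from its own gene, lies on chromosome 3 (60472559 to 60629750, plus strand) and gave 18 circles. Its summed output was 796 and 1023 reads with IL-1β against 1277 and 1260 in control, a log2 change of -0.17 ± 0.20 (edgeR, unadjusted p = 0.414). Beneath that sum its circles went apart. The leading circle, circRNA.24951 (60595594 to 60603894), had 525 and 651 reads with IL-1β against 663 and 545 in control, and after scaling for depth 622 ± 63.8 against 507 ± 85.8 CPM (mean ± SD, n = 2 each). The IL-1β libraries were the higher ones, but with a log2 change of 0.30 ± 0.25 and an unadjusted p = 0.276 in edgeR.

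From the same 5′ end, circRNA.24953 runs on to 60615773 and had 148 and 138 reads with IL-1β against 320 and 323 in control. Both IL-1β libraries were lower, with a log2 change of -0.82 ± 0.28 and an unadjusted p = 0.0240 in edgeR. The circle circRNA.24949 ends at the same 60615773 and begins at 60546946, and had 28 and 29 reads against 127 and 83, a log2 change of -1.54 ± 0.50 with an unadjusted p = 0.0205 in edgeR. Neither passed adjustment (adjusted p = 0.886 each). Another 3′ end, at 60613520, was shared by 3 circles and led by circRNA.24952, with 30 and 65 reads against 94 and 132. The upstream start at 60546946 was used by 62 and 68 reads with IL-1β against 164 and 184 in control, again with no overlap.

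By 3′ end, circles that stop at 60603894 made up 70.0% and 64.5% of Mbnl1 reads with IL-1β against 54.3% and 49.8% in control. Circles that stop at 60615773 made up 25% and 23.2% with IL-1β and 37.1% and 36.1% in control. The groups did not overlap at either end. A test of whether the circles of a gene changed unequally (edgeR's test for differential splicing, with circles in the place of exons) gave Mbnl1 an unadjusted p = 0.0578 and an adjusted p = 0.860. The shift is therefore a description of these 4 libraries that the test did not call.

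**Figure D4:**
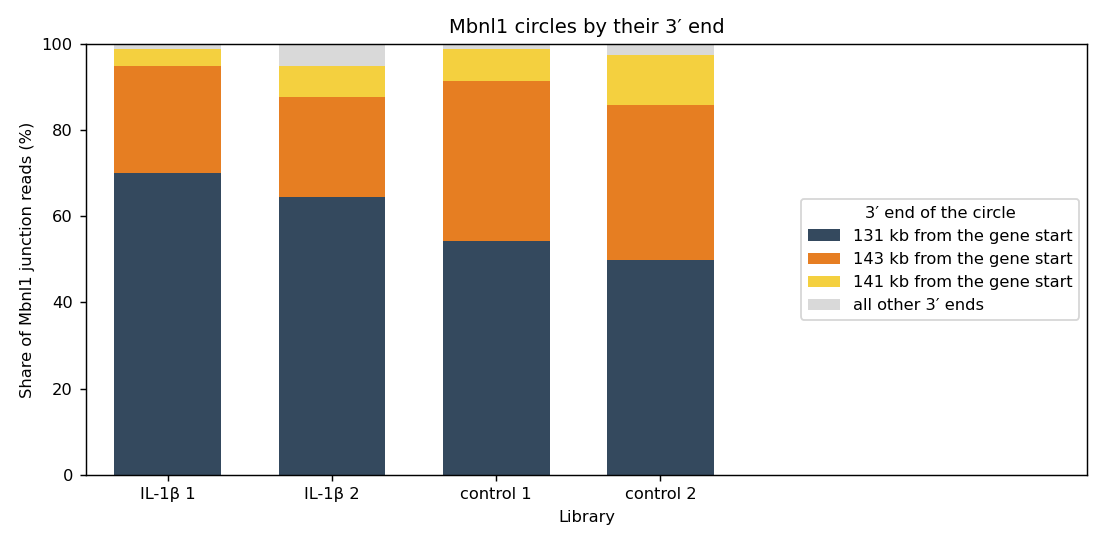
Share of Mbnl1 junction reads (y axis, %) by the 3′ end of the circle in each of the 4 libraries, with 3′ ends named by their distance from the gene start. The end at 131 kb takes 70.0% and 64.5% with IL-1β and 54.3% and 49.8% in control, and the end at 143 kb takes 25% and 23.2% against 37.1% and 36.1%.

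Mbnl2, the paralogue of Mbnl1, gave 168 and 226 reads with IL-1β against 225 and 227 in control, with overlapping groups. Most of these were circRNA.8354, a circle of 619 bp with 134 and 178 reads against 168 and 188. The CELF proteins bind GU-rich sites in splicing and mRNA decay. Celf1 had 135 and 145 reads with IL-1β against 116 and 105 in control, or 147 ± 0.9 against 93.3 ± 5.2 CPM (mean ± SD, n = 2 each), without overlap. Its log2 change was 0.66 ± 0.36, with an unadjusted p = 0.104 in edgeR and a range of 0.62 to 0.75 when any 1 library was left out. The steady sum of Celf1 came from unsteady circles: its leading circle, circRNA.23779, gave 71 and 17 reads with IL-1β against 45 and 15 in control. Of its reads, 77.0% began at the same 5′ end, 90998580, shared by 5 circles. Celf2 had 116 and 65 reads against 102 and 86, with overlap.

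Rbfox2, which binds UGCAUG in introns, gave the most circles of the 29 genes, 23, with 222 and 265 reads with IL-1β against 401 and 290 in control, and the groups overlapped after scaling. Its leading circle, circRNA.10632, had 46 and 68 reads against 152 and 86. After scaling these were 50.6 and 69.7 against 130 and 70.4 CPM, so the second IL-1β library was close to control 2. The log2 change of this circle was -0.74 ± 0.47 (edgeR, unadjusted p = 0.169), and -1.11 to -0.26 when any 1 library was left out. A longer circle of 117833 bp, circRNA.10639, had 0 reads with IL-1β against 10 and 25 in control (edgeR, unadjusted p = 0.0937). By counting error alone, that was at least 4.55-fold lower when 3 reads per IL-1β library are put in the place of 0. By contrast, circRNA.10638 had 58 and 55 reads with IL-1β against 47 and 39 in control.

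Rbm39, a U2AF-like splicing factor, had 116 and 142 reads with IL-1β against 109 and 50 in control, a 2.02-fold higher mean with a log2 change of 1.01 ± 0.47 (edgeR, unadjusted p = 0.0646). Without control 2 the log2 change was 0.59. Its circle circRNA.21846 had 22 and 49 reads against 6 and 14. Rbm20, known for splicing of titin in the heart, gave 27 and 31 reads against 27 and 16. Hnrnpm, an intron-binding ribonucleoprotein, gave 51 and 32 against 37 and 40, and the SR-like factor Srsf11 14 and 22 against 24 and 0. At these low reads only Rbm20 had groups that did not overlap, with a log2 change of 0.74, or 0.45 without control 2. Of the 10 splicing regulators, 8 had a log2 change above 0, where 48.2% of all genes tested did. The median was 0.55, against -0.03 over all genes tested. Among the 8, control 2 was the lowest library in Ptbp3, Celf1, Rbm39, Rbm20 and Srsf11. The changes of Mbnl2, Celf2, Hnrnpm and Srsf11 crossed 0 when a library was left out.

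Sf3b1, the branch-site binding subunit of the U2 particle, had 58 and 27 reads with IL-1β against 13 and 25 in control, without overlap and with a log2 change of 1.49 ± 0.89 (edgeR, unadjusted p = 0.131), which was 0.76 without the first IL-1β library. Among the genes for proteins that bind paired RNA, 0 of 4 had groups that did not overlap, where 17.3% of all genes tested were higher and 18.7% lower without overlap, a share that 4 genes cannot be told from. Adar had 97 and 87 reads with IL-1β against 159 and 122 in control, and 82.2% of them were circRNA.25429, with 92 and 64 against 150 and 76. Zfr, a zinc-finger partner of the ILF2 complexes, had 131 and 101 reads against 170 and 72. Its leading circle was steadier than the sum, since circRNA.9808 had 66 and 63 reads against 76 and 72. Ilf2, a subunit of nuclear complexes that bind paired RNA, had 29 and 70 reads against 42 and 33.

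Dhx9, the helicase set against circle formation, had 85 and 44 reads with IL-1β against 43 and 95 in control, with no order by group. Its leading circle, circRNA.18205, did have one, with 11 and 22 reads with IL-1β against 41 and 61 in control and a log2 change of -1.29 ± 0.78 (edgeR, unadjusted p = 0.149). In the test of unequal change within a gene, Dhx9 had the lowest unadjusted p of the members, 0.0497, with an adjusted p = 0.860. That test compared only 2 of its 15 circles. The 3 circles that begin at 153478189, the leading one among them, had 48 and 22 reads with IL-1β against 41 and 61 in control. Apart from the leading circle, these were read in the first IL-1β library only.

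Drosha cuts primary miRNA transcripts in the nucleus. It had 341 and 206 reads with IL-1β against 413 and 224 in control, and both groups held 1 high and 1 low library. The leading circle, circRNA.9848, followed the same pattern with 148 and 86 against 183 and 96 reads, yet its share of Drosha was 43.4%, 41.7%, 44.3% and 42.9% in the 4 libraries. Ddx17, a helicase of the Drosha complex, had 131 and 220 reads against 263 and 245, of which 80.7% were circRNA.10705, with 113 and 170 against 238 and 172. Of Ddx17 reads, 92.2% began at the same 5′ end, 79543856.

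Ago3, an argonaute protein, had 70 and 73 reads with IL-1β against 187 and 123 in control, or 75.2 ± 2.0 against 130.7 ± 36.3 CPM (mean ± SD, n = 2 each). Both IL-1β libraries were lower, by 1.74-fold, with a log2 change of -0.80 ± 0.41 (edgeR, unadjusted p = 0.0886) and -1.04 to -0.44 when any 1 library was left out. Of the 18 Ago3 circles, the leading circRNA.26264 had 12 and 13 reads against 40 and 37, and circRNA.26265, which shares its 3′ end, had 0 and 6 against 24 and 41. All 6 tested Ago3 circles had a log2 change below 0, where 48.3% of all circRNAs tested were above 0. The groups did not overlap in 2 of the 6. All 6 tested circles of Rbms3, whose summed groups overlapped, were below 0 as well. Ago2, the argonaute with slicing activity, had 36 and 57 reads with IL-1β, 74 in control 1 and 6 in control 2. Its log2 change of 0.53 ± 1.01 turned to -0.34 without control 2.

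The 2 genes of nonsense-mediated decay differed in direction. Upf2, which bridges UPF1 to the exon junction complex, lies on chromosome 2 (5951447 to 6056703, plus strand) and had 303 and 228 reads with IL-1β against 168 and 146 in control. This was 281 ± 71.6 against 133 ± 11.2 CPM (mean ± SD, n = 2 each), with both IL-1β libraries above both controls. The mean was 2.12-fold higher, with a log2 change of 1.08 ± 0.32 and an unadjusted p = 0.00882 in edgeR, and 0.80 to 1.32 when any 1 library was left out. The reads were spread over several circles, all 5 tested ones with a log2 change above 0 (48.3% of all circRNAs tested). The leading circle, circRNA.23389 (5982992 to 6010428), had 71 and 93 reads against 55 and 41, and circRNA.23383, which shares its 3′ end, had 52 and 100 against 63 and 33. Another circle with that end, circRNA.23371, had 40 reads in the first IL-1β library and 0 in the other 3. The shared 3′ end at 6010428 took 65.4% of Upf2 reads, with 168 and 193 with IL-1β against 118 and 74 in control.

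Upf1, the helicase of the same pathway, had 4 and 67 reads with IL-1β against 82 and 81 in control. The first IL-1β library was far below the others, and without it the log2 change of -0.93 ± 0.97 (edgeR, unadjusted p = 0.366) was -0.02. One end served most of its circles, since 7 circles and 86.3% of reads began at 70344365. Among them, circRNA.37436 had 0 reads with IL-1β against 26 and 10 in control. The difference between Upf1 and Upf2 was not tested.

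Among the genes for mRNA stability and translation, Rbms1 had most reads, 380 and 553 with IL-1β against 673 and 291 in control, with overlap. It used the 3′ end at 60779731 for 94.3% of reads, with circRNA.23436 (269 and 358 against 515 and 217 reads) in the lead. A minor circle, circRNA.23439, had 12 and 23 reads with IL-1β against 0 in either control, with an unadjusted p = 0.0542 in edgeR. By counting error alone, that was at least 7.32-fold higher when 3 reads per control library are put in the place of 0. Rbms3, its paralogue in a much longer gene, had 51 and 81 reads against 85 and 193. Control 2 was the high library there, and its leading circle, circRNA.38674, had 3 and 11 reads with IL-1β, 0 in control 1 and 65 in control 2.

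Pum2, a Pumilio repressor of translation, had 75 and 90 reads with IL-1β, 86 in control 1 and 14 in control 2. Its log2 change of 1.04 ± 0.77 was 0.28 without control 2. The 5′ end that began 60.0% of Pum2 reads, 8698091, had 50, 56 and 53 reads in the other libraries and 0 in control 2. Elavl1 (HuR), which stabilises AU-rich mRNAs, had 36 and 32 reads against 33 and 30, and 2 of its circles from 1 shared 3′ end went different ways: circRNA.37171 had 20 and 22 against 7 and 21, and circRNA.37172 had 0 and 0 against 18 and 9. Fmr1, the gene of fragile X syndrome, had 11 and 61 reads against 48 and 16, with no order by group.

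Mettl3, the catalytic subunit of the m6A methyltransferase, had 17 and 38 reads with IL-1β against 18 and 5 in control, without overlap. Of these, 85.9% were circRNA.9066, a circle of 442 bp, with 17 and 27 against 18 and 5 reads. The log2 change of Mettl3 was 1.55 ± 1.27 (edgeR, unadjusted p = 0.257), and 0.93 without control 2, its lowest library. The export receptor gene Xpo1 had 15 and 0 reads with IL-1β against 28 and 33 in control. Its circle circRNA.3165 had 0 reads with IL-1β against 22 and 14 in control (edgeR, unadjusted p = 0.0855). By the same bound on counting error alone, that was at least 4.75-fold lower. The import receptor gene Tnpo1 had 44 and 74 reads against 93 and 34, with overlap. Its leading circle, circRNA.8204, gave 3 and 18 against 43 and 0.

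Taking circles one by one, 119 of the 290 had at least 20 reads and were tested. Of these, 0 passed an adjusted p under 0.05 in edgeR (lowest 0.886), against 3 of all 15333 circRNAs tested (0.0196%), and DESeq2 passed 1, circRNA.27756, against 101 of all tested (0.659%). At an unadjusted p under 0.05 there were 4, against 3.44% of all circRNAs tested: 2 Ptbp3 circles on the higher side (1.83% of all circRNAs tested) and 2 Mbnl1 circles on the lower side (1.62% of all circRNAs tested), named above. Both IL-1β libraries stood above both controls in 23 of the 119 (16.4% of all circRNAs tested) and below both in 16 (17.2%). The log2 change was above 0 in 66 (55.5% against 48.3%), with a median of 0.15 against -0.05. No circle with reads in 1 group alone reached 50 reads there.

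Agreement within a group depended on read number. Of member circles with 10 to 19 reads in a library, 19 of 42 and 19 of 42 had 0 reads in the other IL-1β library, and 20 of 30 and 21 of 38 had 0 in the other control. With at least 50 reads the counts were 0 of 20, 0 of 22, 0 of 19 and 1 of 19. The exception, chosen after its values were seen, was circRNA.38674 of Rbms3 with 0 reads in control 1 and 65 in control 2. In all, 154 of the 290 circles (53.1%) were read in 1 library only, with 4.62% of member reads, while the 55 circles read in all 4 libraries (18.97%) carried 85.9%. Over all genes tested the shares of circles were 55.2% and 18.4%. There were 6 circles read in both IL-1β libraries and no control, and 8 in both controls and no IL-1β library. Pairs made of 1 library from each group had 4 to 15 such circles, so reads in 1 group alone were no more frequent than reads in such a mixed pair.

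**Figure D5:**
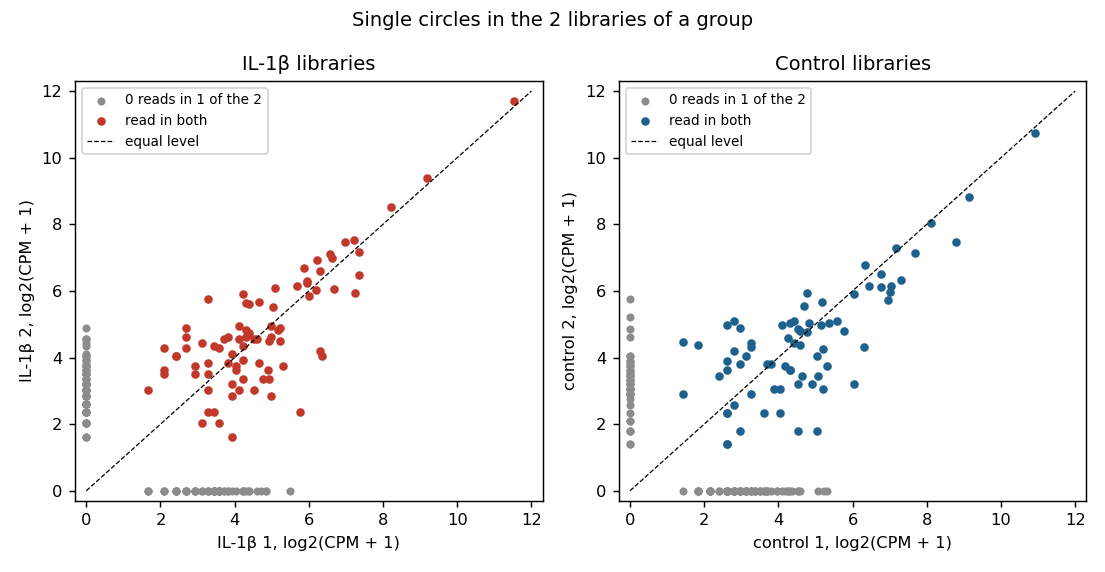
Level of each member circle in the 2 libraries of a group, as log2(CPM + 1) on both axes, IL-1β libraries on the left and controls on the right; grey points had 0 reads in 1 of the 2. High circles lie near the line of equal level, and zeros in 1 library occur mostly for circles of few reads, such as 19 of 42 circles with 10 to 19 reads in an IL-1β library.

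In the test of unequal change within a gene, 27 members could be tested and 1, Dhx9, had an unadjusted p under 0.05, against 4.16% of 2647 genes. For Dhx9 only 2 circles entered the test. Mbnl1 followed with 0.0578 and Elavl1 with 0.0768. After adjustment 0 members passed in edgeR, against 2 of 2647 genes (0.0756%).

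Other genes of the same processes were counted too. From 8 lists of 233 further genes for splicing, the spliceosome, paired RNA, miRNAs, decay, mRNA stability, m6A and nuclear transport, 174 had circles and 147 could be tested, 78 with a log2 change above 0 and 69 below. None of the 147 passed adjustment in edgeR. At an unadjusted p under 0.05 there were 5 higher genes (2.11% of all genes tested) and 1 lower (2.44% of all genes tested), and the median log2 change was 0.05. Groups did not overlap in 29 higher genes (17.3% of all genes tested) and 22 lower ones (18.7% of all genes tested). Of 26 other splicing regulators, 15 were above and 11 below 0, with a median of 0.07, and the ribonucleoprotein gene Syncrip had no IL-1β reads but 23 and 31 control reads (edgeR, unadjusted p = 0.0230). Of 24 spliceosome genes, 14 were above 0 with a median of 0.10. Of 10 genes for proteins that bind paired RNA, 5 were above 0 with a median of -0.01, and 2 low genes went opposite ways: Strbp had 44 and 4 reads with IL-1β against 0 in either control, and Ddx3x had 0 reads with IL-1β against 13 and 21 in control (edgeR, unadjusted p = 0.0224 and 0.0730).

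Of 8 miRNA pathway genes, 4 were above 0 with a median of -0.01. Without overlap, 2 were higher (17.3% of all genes tested) and 2 lower (18.7% of all genes tested). The higher ones were Xpo5, the exporter of miRNA precursors, with 124 and 101 reads against 92 and 70 (edgeR, unadjusted p = 0.0962), and the argonaute gene Ago4 with 21 and 14 against 4 and 0. The lower ones were genes of argonaute partners, Tnrc6b with 349 and 459 reads against 670 and 577 and Tnrc6c with 85 and 171 against 213 and 219. Of 29 decay genes, 13 were above 0 with a median of -0.14, and Dcp1a, a decapping activator, had 0 reads with IL-1β against 24 and 14 in control. Of 19 stability genes, 10 were above 0 with a median of 0.14, and Cpeb3, which binds cytoplasmic polyadenylation elements, had 519 and 610 reads against 1208 and 831 (edgeR, unadjusted p = 0.0546). Only 6 m6A genes could be tested, 4 of them above 0 (48.2% of all genes tested), with a median of 1.06. Without overlap, 4 were higher (17.3% of all genes tested) and 1 lower (18.7% of all genes tested). Whether these 6 genes differ as a set was not tested. Among these the methyltransferase gene Mettl16 had 334 and 298 reads against 211 and 250 (edgeR, unadjusted p = 0.0217). Of the demethylase genes, Alkbh5 was higher with 28 and 64 reads against 26 and 18 (edgeR, unadjusted p = 0.132), and Fto was lower with 396 and 421 against 679 and 647 (edgeR, unadjusted p = 0.113). Of 27 transport genes, 15 were above 0 with a median of 0.12. There the import receptor gene Ipo7 had 737 and 1041 reads with IL-1β against 779 and 533 in control, and the export receptor gene Cse1l had 222 and 306 against 213 and 130 (edgeR, unadjusted p = 0.0192 and 0.0246). Control 2 was the lowest library in Xpo5, Ago4, Alkbh5, Ipo7 and Cse1l, and their changes are not given here without it.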

How the data were processed

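Per the labels' protocols, ribosomal RNA was depleted, RNase R was applied and strand-specific libraries were built. The submitters' processing notes name mm10 and Bowtie2, but no source used here names the circRNA caller. Per the file headers, the authors deposited 2 values for each circle: counts of junction reads and a signal scaled for depth, called SRPBM. Counts divided by the deposited signal gave 1 constant per library (11.9, 13.4, 11.8 and 16.1). The 4 single-library tables equalled the series table. RefSeq spans of GRCm38.p6 gave the genes, and exons and introns could not be told apart with them. Start windows were found for 25 of the 29 genes.

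Junction reads, which need no scaling by length, were summed per gene. Counts were tested in edgeR 4.0.16 under R 4.3.3, by the quasi-likelihood test with TMM factors, for genes or circles with at least 20 reads, adjusted over all of them. CPM uses TMM factors fitted separately for genes and for circles, and SE is the log2 change over the square root of F. DESeq2 1.42.0, other scalings and filters, a replicate block and leaving out each library were alternatives. Bounds against 0 put 3 reads in each empty library and reflect counting error alone, as PCR copies are not independent molecules. Tests were tried on simulated data first. The members and gene lists were chosen with earlier results of these data known. Named circles were the leading circle of each member with at least 200 reads, the 6 higher and 6 lower member circles of lowest unadjusted p, and circles in 1 group only with at least 50 reads; further genes were those of each list with the 3 lowest p or the 2 highest read numbers. A gene that met this rule is not reported here. Other circles named were chosen after their values were seen.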

Additional observations from a re-analysis of the deposited data

How the results depend on the processing

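With 2 libraries a group, no change in a member passed adjustment in edgeR, and most 2-fold changes of low genes or circles cannot be told from the spread between libraries (median coefficient of variation 58.0% for genes and 133% for circles). Ptbp3, Upf2, Celf1 and Rbm39 kept a log2 change above 0, and Ago3 one below 0, whichever library was left out. Pum2, Elavl1, Sf3b1, Rbm20, Mettl3 and Ilf2 also stayed above 0, and Mbnl1, Adar, Rbms3, Upf1 and Xpo1 below 0. Some of these came close to 0: Ilf2 fell to 0.0014, and Adar, Mbnl1, Rbms3 and Upf1 rose to -0.065, -0.052, -0.031 and -0.025. The change of the other 13 members crossed 0. The share of all genes tested that kept their sign was not determined, so keeping it does not set these members apart. Leaving out a library leaves 1 sample in a group, which is then assumed to vary like the other group.

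With the replicate number as a block, 18 genes, 61 circRNAs and 17 genes in the test of unequal change passed adjustment (against 0, 3 and 2), 5 members and 0 members in the test of unequal change had an unadjusted p under 0.05 (against 2 and 1), and the log2 changes of circRNA.38674 and circRNA.8204 turned to 0.19 and 0.97. Deviations of same-numbered libraries correlated at 0.03 for genes and -0.00117 for circles. With 2 libraries a group, that cannot tell whether the numbers pair the libraries, and the labels do not say. DESeq2 passed 46 genes and 101 circRNAs after adjustment, 2 and 1 of them members, and gave 543 genes, 5 of them members, and 1379 circRNAs, 14 of them member circles, at an unadjusted p under 0.05. Without a read minimum edgeR passed 12 genes and 61 circRNAs after adjustment, with 351 genes and 856 circRNAs at an unadjusted p under 0.05, 7 of these member circles, and a median log2 change of 0.45 over all 290 member circles. With at least 200 reads, 257 circRNAs and 58 genes in the test of unequal change had an unadjusted p under 0.05. Summing junctions within 5 nt left 0 circRNAs and 0 genes in the test of unequal change after adjustment. With depth taken from SRPBM, 0 members and 2 member circles had an unadjusted p under 0.05. The median over member circles was then -0.080 (all circRNAs tested -0.28), and the log2 change turned to -0.037 for Rbms1, -0.15 for Drosha, -0.10 for Mbnl2, -0.023 for Zfr, -0.11 for Tnpo1, -0.19 for circRNA.9848, -0.080 for circRNA.8354, -0.21 for circRNA.23436 and -0.092 for circRNA.9808. That scaling moved the median of all genes tested from -0.03 to -0.24 and of the members from 0.28 to 0.12, with 55.2% of members above 0. For the other alternatives the cause was not tested.

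When each library was left out in turn, 0 to 1 genes, 0 to 4 circRNAs and 1 to 8 genes in the test of unequal change passed adjustment. At an unadjusted p under 0.05 there were 161 to 445 genes, 378 to 1019 circRNAs and 71 to 338 genes in the test of unequal change, with 2 to 7 members, 1 to 8 member circles and 0 to 1 members among them, and the highest number of genes came without control 1. The median log2 change was -0.031 to 0.75 over members and 0.021 to 0.55 over member circles. The log2 change crossed 0 in 13 members: Rbms1 (-0.19 to 1.01), Drosha (-0.37 to 0.64), Rbfox2 (-0.38 to 0.080), Ddx17 (-0.58 to 0.051), Mbnl2 (-0.058 to 0.26), Zfr (-0.19 to 1.03), Celf2 (-0.27 to 0.67), Dhx9 (-0.40 to 0.95), Tnpo1 (-0.32 to 1.11), Ago2 (-0.34 to 3.25), Hnrnpm (-0.0095 to 0.77), Fmr1 (-1.15 to 1.45) and Srsf11 (-0.080 to 7.29). It also crossed 0 in 10 named circles: circRNA.25429 (-0.62 to 0.39), circRNA.23779 (-0.55 to 1.92), circRNA.23478 (-2.03 to 0.27), circRNA.10705 (-0.49 to 0.056), circRNA.9848 (-0.43 to 0.64), circRNA.8354 (-0.038 to 0.27), circRNA.6655 (-0.39 to 8.00), circRNA.21848 (-0.18 to 1.83), circRNA.23436 (-0.41 to 0.87) and circRNA.8204 (-2.44 to 6.50). Counts of member circles kept their order with at least 5 reads (122, 137, 136 and 107).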
